A study of Caenorhabditis elegans with 4 samples.

Results

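In embryos of the nematode Caenorhabditis elegans, 324 of 2515 binding regions of the transcription factor CEH-39 (12.9%, 95% Wilson interval 11.6 to 14.2%) were closely paired but separate. Each overlapped no other region of the combined list and had the centre of at least 1 other combined region within 2000 bp on the same chromosome. The members were thus selected by measured values, namely the positions of the combined regions, so their number and spacing are a description. They were set beside 1185 isolated regions (47.1%, 45.2 to 49.1%), which had no other combined centre within 10000 bp. The rest of the list comprised 862 separate regions whose nearest centre lay more than 2000 and up to 10000 bp away and 144 regions that overlapped another.

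The data came from chromatin immunoprecipitation followed by sequencing (ChIP-seq), with 2 ChIP libraries and 2 input libraries, and the values below come from the region lists of both ChIP replicates and from the combined one. All libraries shared the strain OP169, which carries unc119(ed3) and the transgene wgIs169, a fusion of ceh-39 to TY1, EGFP and FLAG tags together with unc119. They also shared the embryo stage, a population of both males and hermaphrodites, and growth at 20 degrees Celsius. The tagged protein came from a transgene introduced by particle bombardment, and was recovered with anti-GFP antibodies from formaldehyde-crosslinked chromatin. No untagged strain was analysed here, and the labels do not tell whether the 2 ChIP libraries came from separate cultures.

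CEH-39 belongs to the ONECUT proteins, which bind DNA through a cut domain joined to a homeodomain. In worms it is one of the X-linked signals that repress xol-1, the switch gene of sex determination, so that the embryo can read its number of X chromosomes. A transcription factor often occupies several sites along one regulatory stretch of DNA, and a peak caller then reports either one merged region or neighbouring regions around separate summits.

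The replicate 1 list held 30000 regions, of which 22 on mitochondrial DNA were left out, and the replicate 2 list held 19048. The usual width was 464 bp in the combined list, 460 bp in replicate 1 and 416 bp in replicate 2. Read depth was unknown. Regions were ranked by the authors' score within each list, rank 1 being the best, and 991 combined regions tied at the highest score, where only the number in a region's name sets the order. The same holds for ranks 1 to 1332 of replicate 1, which all share its highest score, and for ranks 1 to 112 of replicate 2. The sources used here name the irreproducible discovery rate for the calling of regions, but do not give the steps that made the combined list. Of its 2515 regions, 2500 overlapped replicate 1, and it is not taken as independent of the replicate lists. Overlap with them is therefore no independent support, and the comparisons below carry no test. The Wilson and Newcombe intervals are at the 95% level, cover counting error only and take regions as independent. Gene and sequence context of the regions was not analysed here.

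The 324 regions formed mostly simple pairs. In runs of regions linked by centres no more than 2000 bp apart, 250 members made up 125 runs of 2, 45 made up 15 runs of 3 and 12 made up 3 runs of 4. The other 17 members stood in runs that also held overlapping regions. Counting each pair of adjacent members once gave 165 neighbouring pairs, which involved 309 members, 21 of them in more than 1 pair. Runs of 3 spanned 1941 to 4235 bp, and they lay on chromosomes I (5), II (3), III (4) and IV (3), with 0 on V and 0 on X.

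The pairs were spread over most of the range of distances that the definition allows. Their centres were a median of 1291 bp apart (95% order-statistic interval 1193 to 1447 bp, n = 165 pairs), and the median gap between the facing edges was 843 bp (762 to 1002 bp). Only 1 pair had a centre distance below 400 bp and 5 had one of 400 to 600 bp, where regions of the usual width come close to overlapping. Another 8 pairs were 600 to 800 bp apart, and each 200-bp step from 800 bp upwards held 18 to 30 pairs, the most between 1000 and 1200 bp. Over all adjacent combined regions, overlapping ones included, 115 had centres up to 1000 bp apart, 138 between 1000 and 2000 bp, 115 between 2000 and 3000 bp and 73 between 3000 and 4000 bp. The limit of 2000 bp therefore fell within a continuous distribution and not in a gap. The member just inside it, on chromosome I at 6151425 to 6151888 (WS220, the build of all positions here), had its nearest centre 1994 bp away, and the region just outside it, on II at 9057325 to 9057481, had it 2008.5 bp away.

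**Figure D1:**
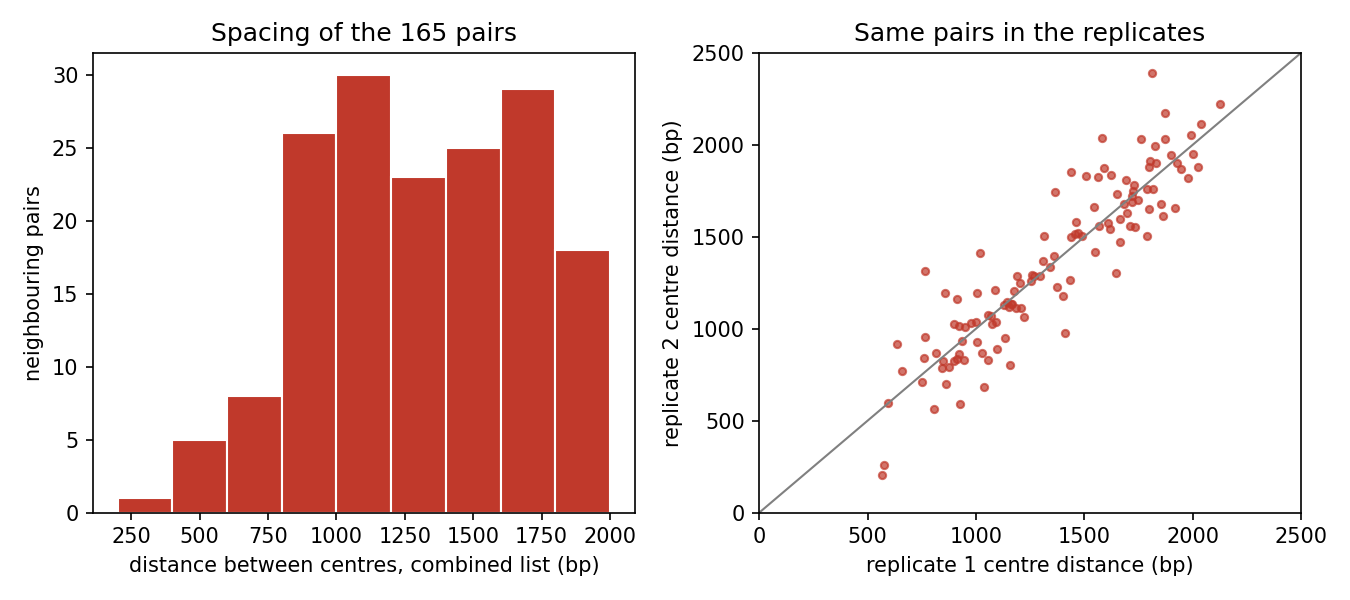
Left, number of neighbouring pairs (vertical axis) by distance between the centres of the 2 combined regions in bp, in steps of 200 bp. Right, centre distance in replicate 2 against replicate 1, in bp, for the 120 pairs whose members were overlapped by different regions in each replicate. The line marks equal distances, and in 64 pairs the 2 distances were within 100 bp of each other.

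Both replicate lists usually held the members of a pair as separate regions. In replicate 1, 164 of the 165 pairs (99.4%, Wilson interval 96.6 to 99.9%) had different regions over the 2 members. In replicate 2 this was so for 121 pairs (73.3%, 66.1 to 79.5%), while in 41 only 1 member was overlapped and in 3 neither was. In 0 of the pairs did a single replicate 2 region serve as the best match of both members. A replicate 1 region of usual width could not reach both members in 136 pairs, nor a replicate 2 region in 144. There, and for the more distant neighbours below, different regions follow from the width wherever both members are overlapped. The 2 members were kept apart in both replicates in 120 pairs (72.7%, 65.5 to 78.9%). For comparison, neighbouring non-overlapping combined regions 2 to 10 kb apart were matched by different regions in both replicates in 408 of 518 cases (78.8%, 75.04 to 82.1%), and those over 10 kb apart in 1242 of 1613 (77.0%, 74.9 to 79.0%).

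The spacing was similar in the 2 libraries, though the 2 measures are not independent. Over the 120 pairs resolved in both, the centre distances in replicates 1 and 2 had a Pearson correlation of 0.909 and a Spearman correlation of 0.909. Both distances come from replicate regions chosen because they overlap the same 2 combined regions, so the correlation follows in part from that choice. This is a description across pairs, whose distances were all limited by the definition. The 2 replicate distances differed by a median of 89.5 bp (72 to 129 bp) and by at most 577 bp. They were within 100 bp of each other in 64 of the 120 pairs (53.3%). The distance in replicate 1 differed from that in the combined list by a median of 20 bp (n = 164 pairs), and that in replicate 2 by a median of 89 bp (n = 121). Members and isolated regions had similar median offsets from the replicate centres. The nearest replicate 1 centre lay a median of 7 bp from the combined centre for members (5 to 10 bp, n = 324) and 10 bp for isolated regions (8 to 11 bp, n = 1178). The nearest replicate 2 centre lay a median of 39 bp away for both (33 to 47 bp, n = 278, and 35 to 42 bp, n = 1037). It lay within 100 bp for 210 members (75.5%) and 832 isolated regions (80.2%), a difference that was not tested.

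Some gaps held a further replicate region that was not in the combined list. Of the 136 pairs whose gap could hold a replicate 1 region of usual width, 24 (17.6%, 12.2 to 24.9%) had at least 1 lying wholly between the members. For replicate 2 the count was 31 of 144 (21.5%, 15.6 to 28.9%). The most in any gap was 2 in each list.

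The pair with the smallest sum of combined ranks lay near the left end of X. Its members, at 1856291 to 1856455 and 1857739 to 1858202, had combined ranks 14 and 111 and replicate 2 ranks 64 and 4325. In all 10 of the 10 highest pairs both members stood at the highest replicate 1 score, so their replicate 1 ranks follow the region names only. Both members also stood at the highest combined score in each, so the choice of these pairs rests on the name order too. The second member adjoined a further member at 1858606 to 1859069 (combined rank 87, replicate 2 rank 211), which also formed one of the 10 highest pairs. These 3 belong to a run of 4 that spanned 4400 bp. It ended with a region of lower combined score at 1860227 to 1860690 (combined rank 2076, replicate ranks 3225 and 812). The first 3 regions thus shared the highest combined score while the last was in the lower part of the combined list. In replicate 2, however, the last ranked better than the second (812 against 4325).

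Chromosome I carried 4 of the 10 highest pairs. The members at 13337052 to 13337515 and 13338881 to 13339147 had combined ranks 119 and 39 and replicate 2 ranks 3315 and 199. Those at 535354 to 535500 and 536768 to 536997 had combined ranks 256 and 55 and replicate 2 ranks 289 and 153. Those at 2290983 to 2291446 and 2292704 to 2293167 had combined ranks 232 and 184 and replicate 2 ranks 195 and 113. In the last 2 of these pairs both members were within the best 300 ranks of replicate 2, whereas in the first only 1 was. The fourth pair, at 4297936 to 4298399 and 4299425 to 4299888 (combined ranks 288 and 509), had replicate 2 ranks 189 and 15274.

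Chromosome IV carried 3 more of the 10, and III carried 1. The IV pair at 14104781 to 14105025 and 14105675 to 14105811 had combined ranks 191 and 268 and replicate 2 ranks 1925 and 7811. The IV pair at 7486316 to 7486489 and 7487974 to 7488229 had combined ranks 454 and 355 and replicate 2 ranks 238 and 133. The IV pair at 15471548 to 15471663 and 15472328 to 15472791 had combined ranks 306 and 519 and replicate 2 ranks 105 and 3332. Of these 3 pairs only the one at 7486316 had both members within the best 300 ranks of replicate 2. On III, the region at 5958142 to 5958443 (combined rank 8, replicate 2 rank 161) had a neighbour centred 888 bp away at 5958949 to 5959412 with combined rank 469 and replicate 2 rank 5093.

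The highest pairs on II and V each joined a region at the highest combined score to one below it. On II the members at 5016119 to 5016582 and 5017141 to 5017604 had combined ranks 331 and 1370 and replicate 2 ranks 2294 and 1633. On V the members at 19642998 to 19643461 and 19643839 to 19644302 had combined ranks 1273 and 181 and replicate 2 ranks 728 and 554. All 4 of these regions stood at the highest replicate 1 score.

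The closest pair contained the combined region ranked first, by name order only among the 991 tied at the highest score. That region, on II at 11979639 to 11980058 (combined rank 1), was separated by 1 bp from a region at 11980060 to 11980354 of combined rank 2274. In replicate 1 a single region, at the highest score, was the best match of both, and in replicate 2 they had separate regions, one at the highest score and one of rank 14948, centred 234 bp apart. This was the only pair that replicate 1 did not resolve, and its separateness rests on that 1 bp. The next closest were on IV, at 11593370 to 11593833 and 11593851 to 11594314, with centres 481 bp apart (combined ranks 2307 and 2190, ranks 4637 and 1422 in replicate 1 and 208 and 291 in replicate 2), and on I, at 11930080 to 11930196 and 11930488 to 11930951, with centres 581.5 bp apart (combined ranks 415 and 1107). In the I pair the replicate 2 centres were 202 bp apart and the replicate 1 centres 564.5 bp apart.

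The 3 widest pairs were those with centres 1994, 1983 and 1982.5 bp apart. The first, on I, joined the member at 6151425 (combined rank 2115) to a region at 6153419 to 6153882 of combined rank 971. The second, on I at 8133644 to 8134107 and 8135627 to 8136090, had combined ranks 1723 and 2094, and 2 further replicate 1 regions lay between its members. The third, on X at 13595931 to 13596394 and 13598045 to 13598245, had combined ranks 1277 and 30 and stood together at the highest replicate 1 score. In replicate 2 its first member had rank 4048 and its second stood at the highest score.

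Besides the X run, the only runs of 4 made of members alone lay on II. One spanned 3575 bp from 11634042 to 11637616, with combined ranks 1010, 2171, 179 and 1897 along the chromosome. Its replicate 1 ranks were 802, 2711, 215 and 1743, and its replicate 2 ranks were 1222, 1428 and 164 for the first 3 members, with the last absent. The other spanned 4600 bp from 9059180 to 9063779, with combined ranks 2293, 2144, 946 and 1497, replicate 1 ranks 3432, 1302, 1850 and 1332, and replicate 2 ranks 2165, 1153 and 5997 for every member but the second, which was absent. In each of these 2 runs, 2 members that do not adjoin tied at the highest replicate 1 score, those of combined ranks 1010 and 179 in the run that starts at 11634042 and those of 2144 and 1497 in the run that starts at 9059180.

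At the highest combined score stood 130 of the 324 members (40.1%, 34.9 to 45.5%), against 39.4% of the whole combined list. Both members stood there in 22 of 165 pairs (13.3%, 8.97 to 19.4%), 1 of the 2 in 89 (53.9%, 46.3 to 61.4%) and neither in 54 (32.7%, 26.03 to 40.2%). Among neighbours 2 to 10 kb apart, both stood there in 95 of 518 (18.3%, 15.2 to 21.9%) and 1 of the 2 in 252 (48.6%, 44.4 to 52.9%), and among those over 10 kb apart both did in 243 of 1613 (15.1%, 13.4 to 16.9%) and 1 of the 2 in 750 (46.5%, 44.1 to 48.9%). Pairs with exactly 1 member at the highest score were thus common at every distance. Of the 15 runs of 3, 0 had all members at the highest score, 5 had 2, 9 had 1 and 1 had none.

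**Figure D2:**
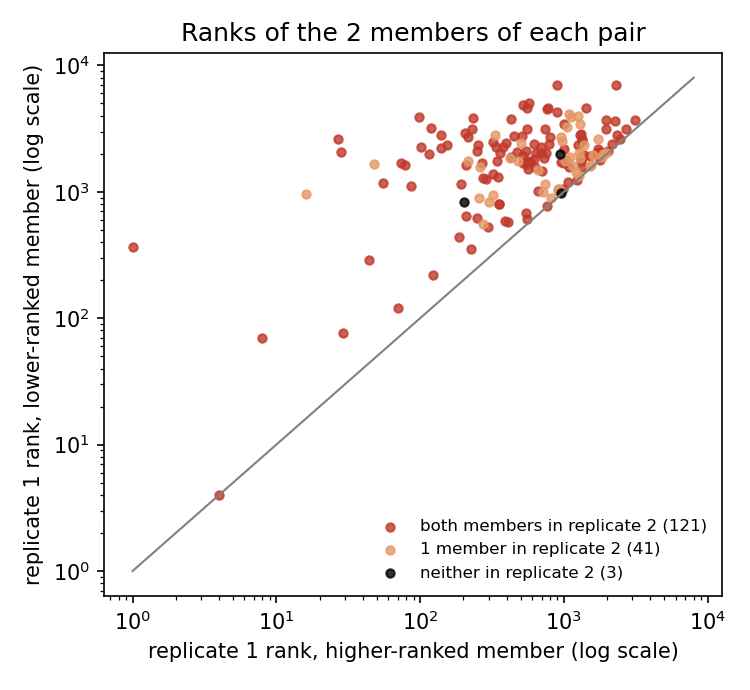
Replicate 1 rank of the lower-ranked member (vertical, log scale) against that of the higher-ranked member (horizontal, log scale) for the 165 neighbouring pairs, with rank 1 the best; colours give how many of the 2 members overlapped a replicate 2 region (121 pairs with both, 41 with 1, 3 with neither). All points lie on or above the line of equal rank by construction, and the pair on the line is the one matched by a single replicate 1 region. Ranks up to 1332 are tied, and their order is that of the region names only.

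Which member ranked higher was the same in both replicates in 79 of the 120 pairs resolved in both (65.8%, 57.0 to 73.7%). In 28 of these the members tied in a replicate, and without them the count was 61 of 92 (66.3%, 56.2 to 75.1%). The same count was 239 of 408 (58.6%, 53.7 to 63.3%) for neighbours 2 to 10 kb apart, 7.25 percentage points below that of the pairs (Newcombe interval of the pairs minus these -2.76 to 16.5), and 716 of 1242 (57.6%, 54.9 to 60.4%) for those over 10 kb apart (8.18 points, -1.08 to 16.5). With ties left out the differences were 10.5 points (-1.09 to 21.2) and 10.9 points (0.239 to 20.3), so of these 4 intervals only that against neighbours over 10 kb apart without ties lay above 0.

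By spacing, the order was shared in 16 of 28 pairs up to 1000 bp apart (57.1%, 39.1 to 73.5%), 26 of 45 pairs at 1000 to 1500 bp (57.8%, 43.3 to 71.03%) and 37 of 47 pairs at 1500 to 2000 bp (78.7%, 65.1 to 88.01%). The widest class exceeded the middle one by 20.9 points (1.94 to 38.1) and the closest one by 21.6 points (0.297 to 41.9). With ties left out the same differences were 21.2 points (-0.299 to 40.5) and 18.4 points (-5.51 to 42.05), both with intervals that include 0. None of these intervals is adjusted for the number of comparisons.

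The members lay on all chromosomes, and the share was lowest on V. They numbered 74 of 530 combined regions on I (14.0%, 11.3 to 17.2%), 53 of 400 on II (13.2%, 10.3 to 16.9%), 73 of 475 on III (15.4%, 12.4 to 18.9%), 56 of 383 on IV (14.6%, 11.4 to 18.5%), 13 of 302 on V (4.30%, 2.53 to 7.22%) and 55 of 425 on X (12.9%, 10.1 to 16.5%). The share on X was close to that on the autosomes together (269 of 2090, 12.9%, 11.5 to 14.4%). Isolated regions made up 63.2% of the V regions (57.7 to 68.5%) and 41.9 to 49.6% on the other chromosomes. Chromosome V was also the sparsest, with 14.4 combined regions per Mb against 21.9 to 35.2 elsewhere, and the part of density in its low share was not tested. Per Mb there were 0.621 members on V and 3.10 to 5.30 on the other chromosomes. The 1-Mb windows richest in members, picked after their values were seen, were 11 to 12 Mb on II (12 members among 38 combined regions), 5 to 6 Mb on III (11 among 45) and 9 to 10 Mb on I (10 among 55).

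**Figure D3:**
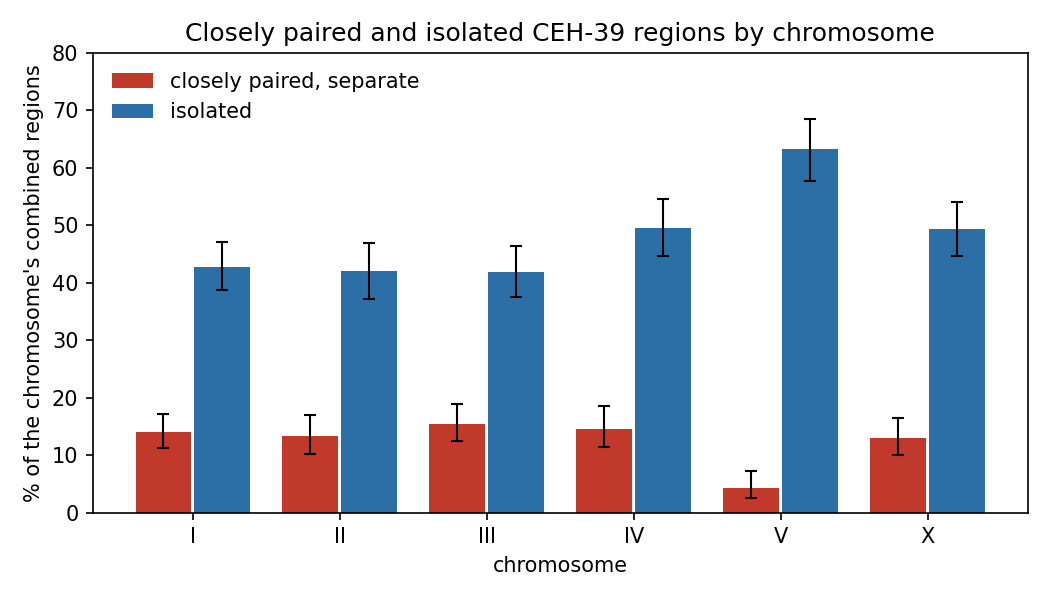
Share of each chromosome's combined regions (vertical axis, %) that were closely paired but separate (left bar) or isolated (right bar); error bars are 95% Wilson intervals. The paired share was 4.30% on V and 12.9 to 15.4% on the other chromosomes.

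Along the chromosomes, 163 of the 324 members (50.3%, 44.9 to 55.7%) and 635 of the 1185 isolated regions (53.6%, 50.7 to 56.4%) lay in the central 50% of their chromosome, against 55.1% of the whole combined list. The difference of -3.28 percentage points had a Newcombe interval of -9.39 to 2.83. On the autosomes the shares were 53.9% for members and 54.2% for isolated regions, a difference of -0.251 points (-6.98 to 6.40). On X, 18 of 55 members (32.7%) and 107 of 210 isolated regions (51.0%) were central, a difference of -18.2 points (-31.02 to -3.44). The difference was also below 0 on II (-14.4 points, -28.7 to 0.938) and V (-22.3 points, -44.06 to 4.69, with 13 members), and above 0 on I (6.51 points), III (6.51 points) and IV (6.30 points). X was the only one of the 6 chromosomes whose interval did not include 0, the intervals are not adjusted for 6 comparisons, and whether X differs from the autosomes was not tested. Members of X were 9.28% of its central regions (5.95 to 14.2%, n = 194) and 16.02% of its outer regions (11.8 to 21.3%, n = 231).

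The shares of members and of isolated regions that overlapped both replicate lists differed by less than their counting error. Both replicates were overlapped by 278 of 324 members (85.8%, 81.6 to 89.2%) and 1030 of 1185 isolated regions (86.9%, 84.9 to 88.7%), against 88.0% of all combined regions. The difference of -1.12 points had an interval of -5.71 to 2.83, and it was -5.40 points (-10.6 to -0.716) when at least 50% of the shorter region had to be shared. All 324 members overlapped replicate 1, as did 1178 of the isolated regions (99.4%). Replicate 2 was overlapped by 278 members (85.8%) and 1037 isolated regions (87.5%, 85.5 to 89.3%), against 88.5% of the whole list. By type of run, 220 of 250 members in runs of 2 (88.0%, 83.4 to 91.5%), 35 of 45 in runs of 3 (77.8%, 63.7 to 87.5%) and 10 of 12 in runs of 4 (83.3%, 55.2 to 95.3%) overlapped replicate 2.

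The 46 members absent from replicate 2 had a median combined rank of 1694.5, against 1114.5 for the 278 that were present. For the 148 isolated regions absent from replicate 2 the median was 1752. In replicate 1, 31 of the absent members (67.4%, 53.0 to 79.1%) and 144 of the present ones (51.8%, 45.9 to 57.6%) stood at the highest score. The combined ranks of the absent members ran from 354 to 2419, and 6 of them stood at the highest combined score. Of the 41 pairs with exactly 1 member in replicate 2, 11 tied in replicate 1, and in the other 30 the absent member had the lower replicate 1 score in 11 (36.7%, 21.9 to 54.5%). The 3 pairs with both members absent, named after their values were seen, lay on I at 3993430 to 3993893 and 3994442 to 3994905, on I at 9413113 to 9413576 and 9414272 to 9414735, and on III at 9109136 to 9109599 and 9110560 to 9111023. Of these 6 regions, 5 stood at the highest replicate 1 score.

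In replicate 1 and in the combined list itself, members and isolated regions stood at similar levels, with every interval of a difference given here including 0. The median combined rank was 1226.5 for members (1085 to 1388) and 1287 for isolated regions (1233 to 1353). The highest score was held by 40.1% of members and 447 isolated regions (37.7%, 35.01 to 40.5%), a difference of 2.40 points (-3.49 to 8.47). Of the best 100 combined regions 15 were members, and of the best 500, 73 (14.6%, 11.8 to 18.0%), against 12.9% of the whole list; these ranks fall inside the tied 991. The highest replicate 1 score was reached by 175 members (54.0%, 48.6 to 59.4%) and 617 isolated regions (52.1%, 49.2 to 54.9%), a difference of 1.94 points (-4.19 to 8.00). A region among the best 2515 of replicate 1 was overlapped by 281 members (86.7%) and 1029 isolated regions (86.8%), against 87.2% of the whole list.

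Among regions found in replicate 2, members had a better median rank than isolated regions. The best overlapping replicate 2 region had a median rank of 1242 for members (1070 to 1658, n = 278) and 1859 for isolated regions (1688 to 2106, n = 1037), a difference of -617 ranks (-918 to -167, combined from the intervals of the 2 medians). Over all combined regions found in replicate 2 the median was 1633. It was 1670.5 for separate regions with the nearest centre at 2 to 10 kb (1485 to 1935), an interval that overlaps that of the members. For regions that overlapped another it was 839 (638 to 1121), better than for members. The median was lower, and so better, for members than for isolated regions on 6 of 6 chromosomes. On V, where only 11 members overlapped replicate 2, it was 554 for members and 2238 for isolated regions, and on X it was 1226.5 and 1429. With absent regions placed last the medians were 2093 and 2496 and the interval of the difference included 0 (-403, -1254 to 153), and with the replicate 2 region of nearest centre in place of the best it also did (-560, -1016 to 159). It included 0 in 5 of 10 alternatives tried, also among regions at the highest score and in the central or outer parts alone. A region among the best 2515 of replicate 2 was overlapped by 179 members (55.2%, 49.8 to 60.6%) and 596 isolated regions (50.3%, 47.5 to 53.1%), against 53.4% of all combined regions, a difference of 4.95 points (-1.19 to 11.0). Among regions at the highest combined score the medians were 722 for members and 762.5 for isolated regions, and below it they were 2183.5 and 3008.

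**Figure D4:**
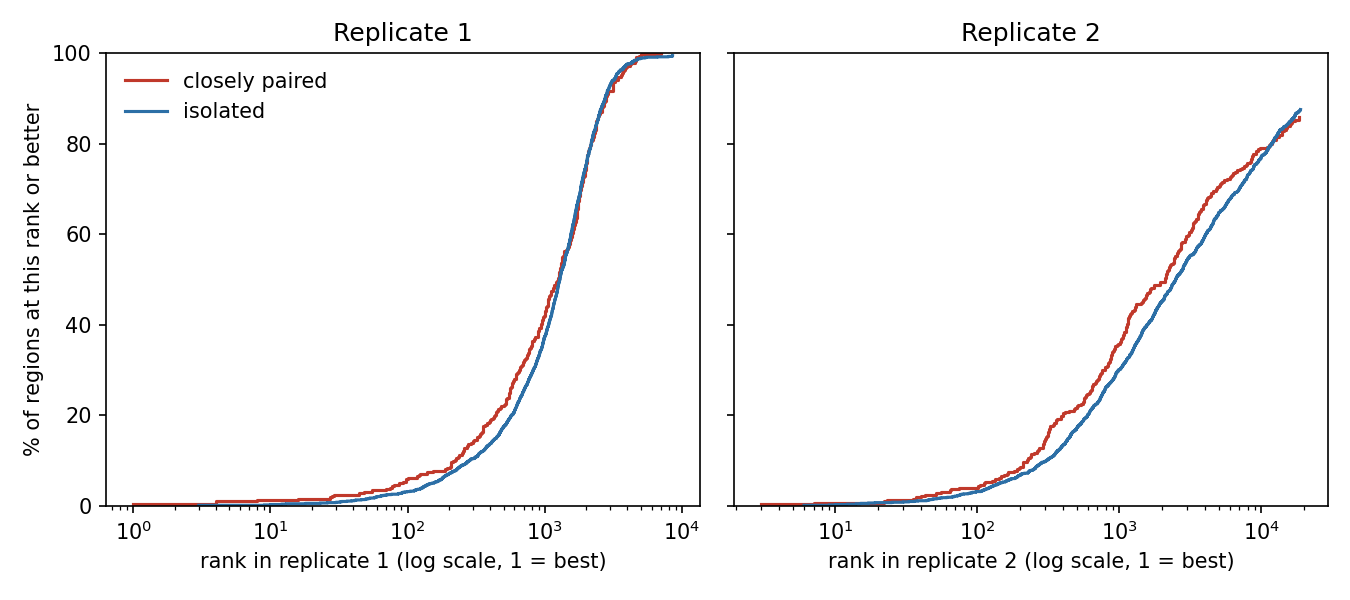
Cumulative share of all members and all isolated regions (vertical axis, %) whose best overlapping region in replicate 1 (left) or replicate 2 (right) had the rank on the horizontal axis (log scale, 1 the best) or a better one. Replicate 1 ranks up to 1332 are tied and ordered by region name only. The curves lie close together in replicate 1, where 86.7% of members and 86.8% of isolated regions were within the best 2515, and in replicate 2 the members' curve lies to the left over most ranks; both curves there end below 100% because absent regions have no rank.

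More often than isolated regions, members touched several replicate 1 regions. More than 1 replicate 1 region was overlapped by 118 members (36.4%, 31.4 to 41.8%) and 332 isolated regions (28.0%, 25.5 to 30.6%), a difference of 8.40 points (2.71 to 14.3). The share over the whole combined list was 32.0%, and it was highest, at 78.5%, for the 144 regions that overlapped another. For replicate 2 the counts were 66 members (20.4%, 16.3 to 25.1%) and 190 isolated regions (16.03%, 14.05 to 18.2%), a difference of 4.34 points (-0.251 to 9.46). Over the whole list the share was 18.7%, and for the regions that overlapped another it was 54.2%. Over the 15 properties for which a difference in share was computed, that of several replicate 1 regions was the only interval without 0, and the intervals are not adjusted for 15 comparisons. Regions narrower than the usual 464 bp numbered 35 among members (10.8%, 7.87 to 14.7%) and 101 among isolated regions (8.52%, 7.06 to 10.3%), against 9.50% of the whole list. Both members were narrow in 4 pairs and 1 of the 2 in 29.

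**Figure D5:**
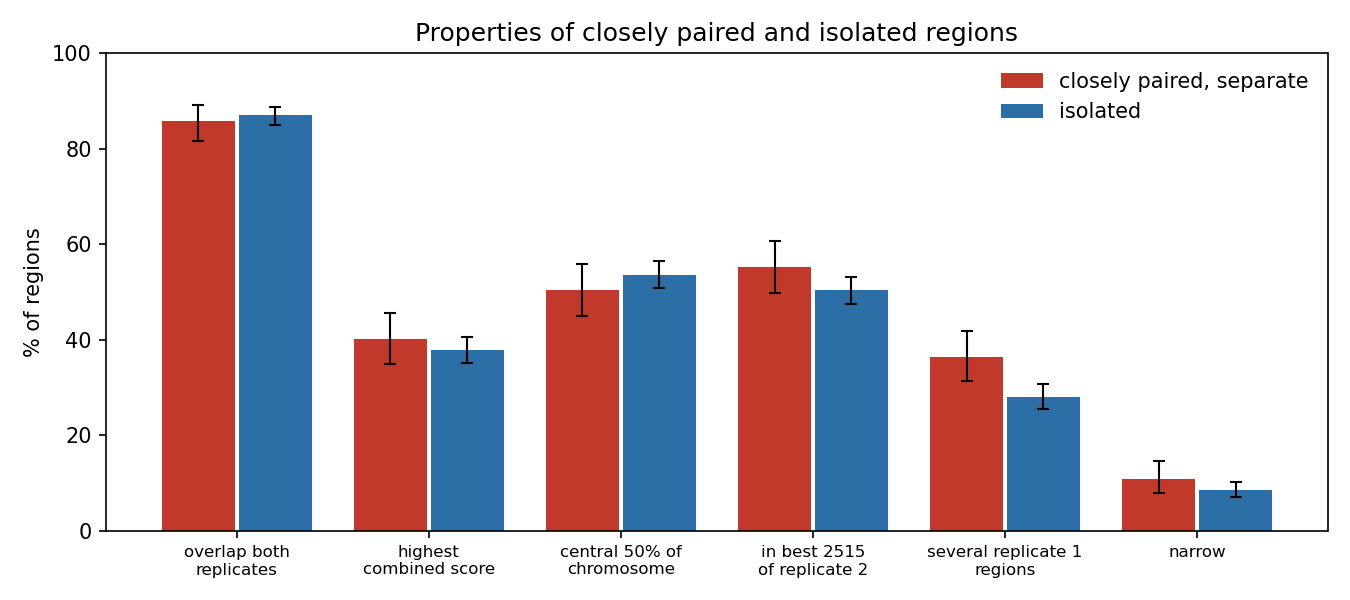
Share of closely paired separate regions (left bar, n = 324) and isolated regions (right bar, n = 1185) with each property (vertical axis, %); error bars are 95% Wilson intervals. The widest separation between the bars is for overlap with several replicate 1 regions, 36.4% for members and 28.0% for isolated regions.

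The same definition was applied inside each replicate list. In the best 2515 regions of replicate 1, 356 of the 2501 nuclear ones were closely paired and separate (14.2%, 12.9 to 15.7%), and in the best 2515 of replicate 2 the number was 323 (12.8%, 11.6 to 14.2%), close to the 12.9% of the combined list. Of the 324 members, 239 (73.8%, 68.7 to 78.3%) were overlapped by such paired regions of replicate 1 and 100 (30.9%, 26.1 to 36.1%) by those of replicate 2. The 3 lists thus held similar shares of close pairs, while the pairs of replicate 2 coincided with fewer of the members. The best 2515 of replicate 2 also overlapped fewer of all combined regions, 53.4% against 87.2% for replicate 1. Those of replicate 2 overlapped both members in 29.7% of pairs and both neighbours in 30.3% of cases 2 to 10 kb apart. For replicate 1 these shares were 73.9% and 75.1%, so overlap by the best 2515 of replicate 2 was lower for both kinds of neighbours. These shares count any of the best 2515 regions. Coincidence with paired replicate regions was not computed for the neighbours 2 to 10 kb apart. In the whole lists, which are far denser, the share was 47.9% in replicate 1 and 42.4% in replicate 2.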

How the data were processed

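Positions and scores were read from the region lists that the authors deposited, 1 for each ChIP replicate and 1 combined. Positions are on WormBase WS220, and regions were called with SPP via the irreproducible discovery rate, per the file headers and source field. The authors deposited the score with no unit named, so it served only for ranking inside each list, with ties ordered by the number in the name. The aligner, thresholds, versions and use of input were not given in the sources used here. No read counts were used, and depth is unknown.

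Centres, distances and overlaps (at least 1 bp) were computed with numpy 2.4.6, pandas 2.3.3, scipy 1.17.1 and statsmodels 0.14.6 in Python 3.11.15, with figures from matplotlib 3.10.9. A region's replicate rank is that of its best-ranked overlapping region. The largest region end over the 3 lists stood for a chromosome's length. Intervals for medians are order-statistic intervals. The calculations were tested on simulated data. No hypothesis test was run, because the positions and scores belong to the list that the rule used. The replicate lists were not taken as independent of it either. The members and lists were chosen with earlier results of these data known. Pairs were named in place of genes, by a fixed rule: the 10 smallest rank sums, the highest on each chromosome, the 3 closest, the 3 widest and runs of 4.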

Additional observations from a re-analysis of the deposited data

How the results depend on the processing

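The number of members depended on the distance chosen, at 81 within 1000 bp, 211 within 1500 bp and 513 within 3000 bp, and was 91 when the definition was applied to the best-scoring 50% of the combined list, which holds fewer regions by construction. Without chromosome V it was 311. Overlap of members with both replicates fell to 78.4% under a minimum of 50% of the shorter region, to 78.4% when each replicate was cut to its best-scoring 50% and to 46.3% for replicates cut to their best 2515 regions, and both cuts shorten the lists by construction. With 1 replicate left out it ran from 85.8 to 100%. Its difference from isolated regions was 4.36 points (-1.70 to 10.5) with the best 2515 regions, and from -1.71 to 0.591 points with 1 replicate left out. With 50% of the shorter region required it was -5.40 points (-10.6 to -0.716), an interval without 0, and the cause was not tested. The central share was 41.05% for the central 40% and 61.7% for the central 60%, by construction. Pairs kept apart in both replicates were 61.2% under the stricter overlap and 62.4% with the replicates cut to their best 50%, and with 1 replicate left out they ran from 73.3 to 99.4%. The shared order within pairs ran from 62.8 to 69.3% over its 3 alternatives. The differences in shared order between distance classes and the shares at the highest replicate 1 score were added after the data were seen. The difference in median replicate 2 rank, a result and alternatives added after the data were seen, was -40.5 among regions at the highest score (-401 to 330) and ran from -824.5 to -403 otherwise. Its interval included 0 in 5 of 10 alternatives: at the highest score, in the central part (-665.5, -1061 to 308), in the outer parts (-519, -1130 to 312), with the nearest centre and with absent regions last. Differences in the share at the highest score ran from 1.46 to 3.89 points, all with intervals that include 0. The median rank has another scale than that share and was given as a value of its own. No paired analysis was possible because no list of input regions was analysed here. Ties at the highest score limit the order of the best 991 combined and 1332 replicate 1 regions, and unknown depth limits what absence from replicate 2 shows.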
